A study of Mus musculus with 42 samples.

Results

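The transcripts of 10 Polycomb genes, out of 27179 genes counted, were followed in spermatogonia of control and *Chd8*-mutant mice. The genes were taken by name, matched to the count table by Entrez gene ID and read over all 12 RNA-seq libraries: *Scml2*, *Ezh1*, *Ezh2*, *Eed*, *Suz12*, *Ring1*, *Rnf2*, *Bmi1*, *Pcgf6* and *Cbx2*. The 10 genes passed the filter on low counts in every comparison, with 439 to 15076 counts per gene and library. Thy1+ and c-Kit+ cells were enriched with magnetic beads from testes of male C57BL/6J mice at 10 dpp, the c-Kit+ cells first and the Thy1+ cells from what the first column let through. Controls were Ddx4-Cre/Chd8+/F and mutants (CKO) Ddx4-Cre/Chd8F/-, with 3 libraries of each genotype in each population, so that controls also carried the Cre transgene, a floxed allele and an intact allele. Ddx4-Cre recombines the floxed allele in germ cells. Somatic cells that stay in a preparation keep the floxed allele, beside a deleted allele in mutants and an intact allele in controls. The cells came from pups for each analysis, but whether a library stands for a single pup or a pool is not given in the sources used here, so p-values measure the spread between these libraries.

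Polycomb proteins work in complexes that mark histones and keep genes silent. PRC2 methylates histone H3 (the H3K27 mark) through its catalytic subunit EZH1 or EZH2, held by EED and SUZ12, whereas PRC1 ubiquitylates histone H2A through RING1 or RNF2. A PCGF subunit (BMI1 in canonical PRC1, PCGF6 in a variant form) and a chromobox reader of H3K27 methylation such as CBX2 set the kind of PRC1. SCML2 is a germline partner of PRC1, known from male mice for suppressing somatic genes in the germline and shaping the chromatin of spermatogonia before meiosis, and PCGF6 complexes are known for holding germline genes silent in embryonic stem cells.

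Library totals ran from 32266861 to 45396233 counts. Among values from 1 to 19, 65.6% to 69.5% were even, and the command in the file header sets no option to count read pairs, so that each mate of a pair was counted and fragments are fewer than counts. Levels are given as CPM (counts relative to the library total, scaled by edgeR's TMM factors), as mean ± SD (n = 3) or for replicates 1, 2 and 3 in this order, and a gene was called at an FDR under 0.05 with an absolute log2 fold change over 0.5 in the quasi-likelihood test of edgeR, adjusted after Benjamini and Hochberg. The levels use TMM factors from all 12 libraries, and each fold change uses factors from the libraries compared. Ratios of printed levels can therefore differ somewhat from the fold changes. *Chd8* itself had 258 to 316 CPM over the 12 libraries, with overlapping genotypes in both populations, and the recombination removes only some of its exons, so whole-gene counts do not check the genotype labels. *Thy1* was higher in Thy1+ than in c-Kit+ control libraries by 4.22 and *Kit* lower by 1.19 on the log2 scale, both called. The first replicate of both Thy1+ groups stood apart in Sertoli cell markers (8 genes summed), at 2374 CPM (control) and 3157 CPM (mutant), against 542 to 608 CPM in the other control and 1057 to 1128 CPM in the other mutant libraries.

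*Scml2* was the most abundant of the 10 transcripts per length of exon in 3 of the 4 groups. This gene (gene ID 107815) lies on the plus strand of chromosome X, 161162772 to 161258213 (mm10), with 4847 exon bases. On the scale of CPM per kb of exon, which allows genes to be compared, it reached 79.0 ± 8.67 in control c-Kit+ cells, 57.9 ± 1.52 in mutant c-Kit+ cells and 55.7 ± 9.83 in control Thy1+ cells. In mutant Thy1+ cells, *Eed* (43.6 ± 9.06 CPM per kb) and *Scml2* (40.1 ± 9.02 CPM per kb) had overlapping libraries. *Eed* followed *Scml2* in the other groups, and their library ranges were apart only in control c-Kit+ cells. *Suz12*, *Bmi1*, *Cbx2* and *Rnf2* formed a middle range, from 28.7 to 50.7 CPM per kb as group means, in which most neighbours overlapped. *Ezh1* and *Ezh2* came next (17.3 to 26.8 CPM per kb), then *Pcgf6* (10.6 to 17.8 CPM per kb) and *Ring1* (6.39 to 8.65 CPM per kb). The place of *Ring1* is uncertain, since 50.9% of its exon bases also belong to a gene on the opposite strand (gene ID 100502891), the reads were counted without regard to strand, and reads that fall on 2 genes are left out under default counting. No exon of the other 9 genes overlapped another gene of the table.

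**Figure D1:**
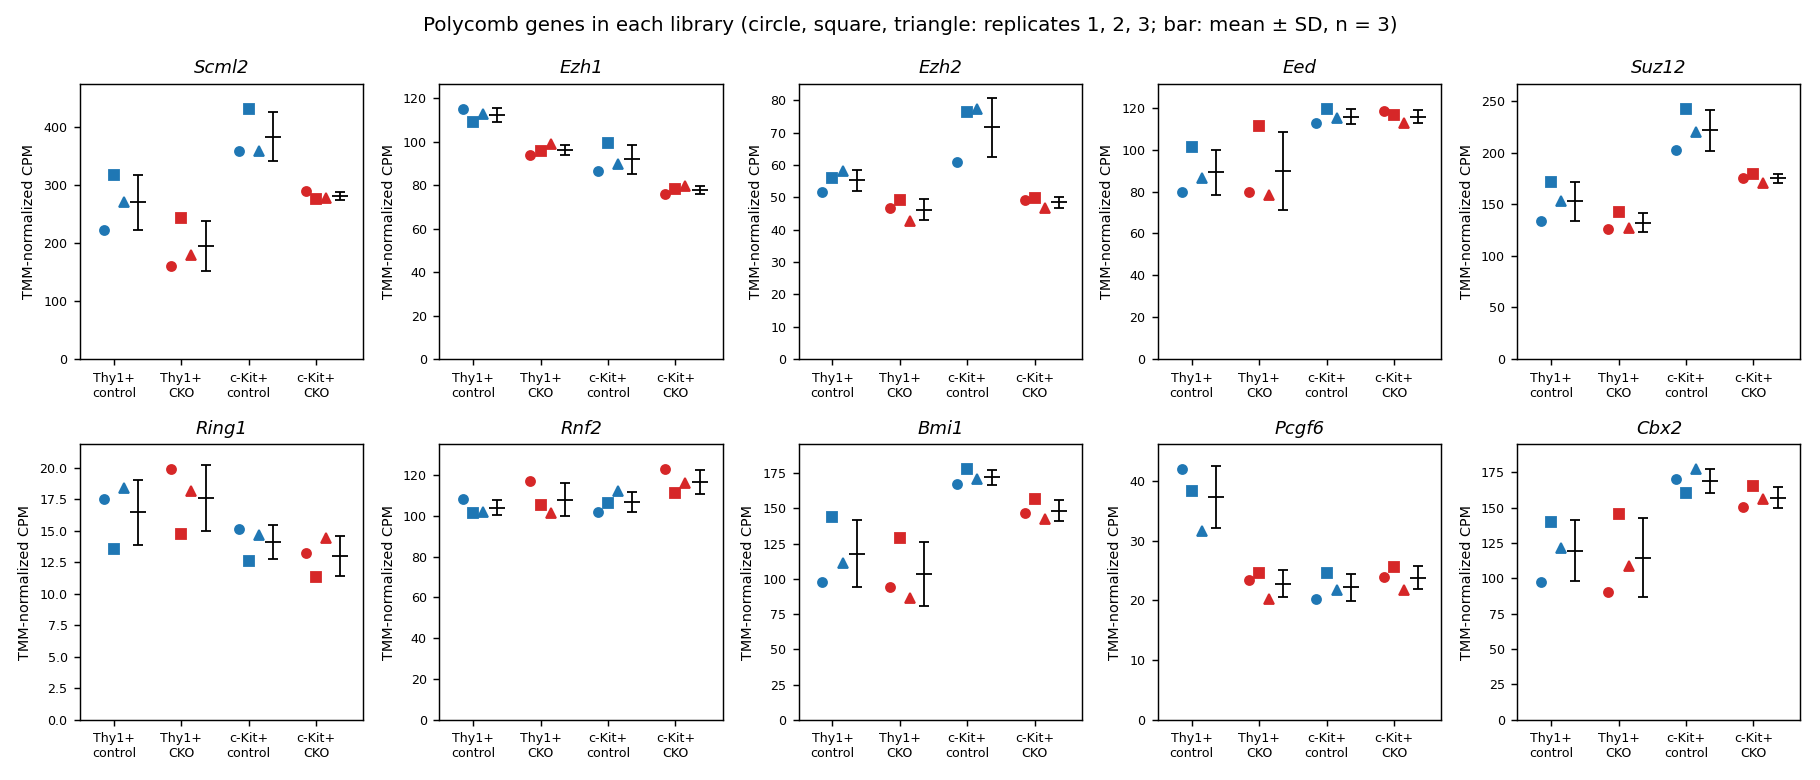
Levels of the 10 Polycomb genes in every library, in TMM-normalized CPM on axes that start at 0 (blue, control; red, mutant; circle, square and triangle, replicates 1, 2 and 3; bar, mean ± SD, n = 3). Scml2 and Ezh2 lie lower in the mutant c-Kit+ libraries than in any control c-Kit+ library, whereas Pcgf6 is high in the control Thy1+ libraries alone (31.6 to 41.9 CPM).

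The promoters of the genes on which the results turn are shown because *Scml2* and *Ezh2* were called lower in mutant c-Kit+ cells, *Pcgf6* had the largest difference in Thy1+ cells, and *Ezh1* is the paralog of *Ezh2*. The 250 bases before the RefSeq start (GRCm38.p6, the build of the counts) are written 5′ to 3′ on the strand of the gene, with matches to the searched motifs in capitals. They span chrX:161162500-161162749 (plus strand) for *Scml2*, chr6:47595031-47595280 (minus strand) for *Ezh2*, chr11:101226464-101226713 (minus strand) for *Ezh1* and chr19:47050907-47051156 (minus strand) for *Pcgf6*.
Scml2: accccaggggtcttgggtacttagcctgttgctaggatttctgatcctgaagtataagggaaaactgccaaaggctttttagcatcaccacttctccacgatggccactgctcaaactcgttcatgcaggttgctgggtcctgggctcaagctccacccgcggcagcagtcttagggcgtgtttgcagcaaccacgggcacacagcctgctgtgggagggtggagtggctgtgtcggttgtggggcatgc
Ezh2: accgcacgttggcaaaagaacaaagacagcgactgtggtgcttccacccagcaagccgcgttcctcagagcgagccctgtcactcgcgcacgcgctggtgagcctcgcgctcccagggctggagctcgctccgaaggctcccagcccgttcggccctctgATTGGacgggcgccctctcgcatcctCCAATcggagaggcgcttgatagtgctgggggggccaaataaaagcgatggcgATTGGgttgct
Ezh1: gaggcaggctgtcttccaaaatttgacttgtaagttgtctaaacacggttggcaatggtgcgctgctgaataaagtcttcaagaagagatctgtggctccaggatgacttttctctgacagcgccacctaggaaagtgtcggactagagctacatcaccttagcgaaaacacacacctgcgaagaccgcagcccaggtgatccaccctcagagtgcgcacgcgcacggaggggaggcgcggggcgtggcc
Pcgf6: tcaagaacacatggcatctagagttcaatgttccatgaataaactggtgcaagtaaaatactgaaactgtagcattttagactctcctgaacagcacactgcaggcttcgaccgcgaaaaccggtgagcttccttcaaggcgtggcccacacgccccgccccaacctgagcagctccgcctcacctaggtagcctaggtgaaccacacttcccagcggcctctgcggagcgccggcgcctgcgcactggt

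The motifs searched on both strands were CCAAT (bound by NF-Y), CACGTG (an E-box), and TTTGGCGC and TTTCGCGC (bound by E2F). CCAAT occurred 3 times before *Ezh2*, beginning 90, 64 and 11 bases before the start, and was not found before *Ezh1*, *Scml2* or *Pcgf6*. It was found in 33.8% of 32851 RefSeq promoters of the same length. Of the other members with a promoter in the table (9 of 10, without *Cbx2*), *Suz12* had 1 CCAAT and *Bmi1* 1 CACGTG (6.02% of promoters). Neither E2F motif occurred in any of the 9, and 0.417% (TTTGGCGC) and 0.256% (TTTCGCGC) of all promoters held them. The number of CpG dinucleotides in these 250 bases was 7 for *Scml2*, 14 for *Ezh1*, 23 for *Ezh2* and 14 for *Pcgf6*, beside a median of 6 over all promoters.

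The comparison of mutant with control c-Kit+ cells asks which genes of differentiating spermatogonia depend on *Chd8*. Transcripts of *Scml2* and of *Ezh2* were called lower in the mutants, at 0.70 and 0.65 of the control level in the fit, and no member was called higher. *Scml2* stood at 358, 431 and 359 CPM (control) against 289, 275 and 278 CPM (mutant). Every mutant library lay below every control library, and the mutant values were tightly grouped. The log2 fold change was −0.51 (SE 0.08, FDR = 8.3e-04). *Ezh2* (gene ID 14056; chromosome 6, 47530274 to 47595030, minus strand), the catalytic subunit of PRC2 that prevails in dividing cells, stood at 61.0, 76.3 and 77.4 CPM (control) against 49.2, 49.8 and 46.6 CPM (mutant). These groups did not overlap either, and the lowest control library was replicate 1. The log2 fold change was −0.62 (SE 0.10, FDR = 9.7e-04). These 2 of 10 members were called lower and 0 higher, beside 7.41% of the 17134 genes tested that were called lower and 14.8% that were called higher.

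With the FDR alone, without a minimum on the fold change, 5 of 10 members were lower and 0 higher, beside 18.3% of all genes tested lower and 20.8% higher. The additional 3 were smaller differences in genes of both complexes. *Suz12* (gene ID 52615; chromosome 11, 79993106 to 80034123, plus strand), which PRC2 needs to be stable, stood at 202, 243 and 220 CPM (control) against 176, 179 and 171 CPM (mutant), a log2 fold change of −0.40 (SE 0.07, FDR = 0.00205). *Ezh1* (gene ID 14055; chromosome 11, 101191115 to 101226450, minus strand), the other catalytic subunit, stood at 86.6, 99.4 and 89.7 CPM (control) against 75.9, 78.2 and 79.4 CPM (mutant) (log2 fold change −0.30, SE 0.07, FDR = 0.00873). *Bmi1* (gene ID 12151; chromosome 2, 18677018 to 18686629, plus strand), the PCGF subunit of canonical PRC1 and a repressor of the *Cdkn2a* locus, went from 172 ± 5.28 to 149 ± 7.35 CPM (log2 fold change −0.27, SE 0.06, FDR = 0.00662). In all 3 genes the libraries of both genotypes were apart. Of the 17134 genes tested, 3530 had every mutant library below every control library and 5415 every mutant library above.

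The other members did not pass the FDR in c-Kit+ cells. *Cbx2* (gene ID 12416; chromosome 11, 119023029 to 119031270, plus strand) stood at 169 ± 8.42 CPM (control) against 157 ± 7.48 CPM (mutant), with overlap (log2 fold change −0.16, SE 0.06, FDR = 0.0704). *Eed* (gene ID 13626; chromosome 7, 89954654 to 89980976, minus strand), the PRC2 subunit that reads H3K27 methylation, stood at 116 ± 3.47 and 116 ± 2.91 CPM. The log2 fold change of *Eed* was −0.06 (SE 0.06, FDR = 0.474), and whether it differed from those of *Ezh2* and *Suz12* was not tested. *Rnf2* (gene ID 19821; chromosome 1, 151469406 to 151500823, minus strand), the main ubiquitin ligase subunit of PRC1, stood at 107 ± 5.02 CPM (control) against 117 ± 5.77 CPM (mutant) (log2 fold change 0.07, SE 0.07, FDR = 0.441). *Ring1* (gene ID 19763; chromosome 17, 34020792 to 34024680, minus strand), its paralog, differed by −0.18 (SE 0.13, FDR = 0.316) and *Pcgf6* by 0.04 (SE 0.11, FDR = 0.803). The median log2 fold change of the 10 members was −0.22, beside 0.01 over all genes tested.

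The call of *Scml2* rests on the fold minimum, which it passed narrowly. Without control replicate 2 (the highest library) its log2 fold change was −0.42, without mutant replicate 2 it was −0.49, with library totals in place of TMM factors −0.50 and in a fit of all 12 libraries −0.45, with an FDR of 4.7e-04 to 0.0490 in these 4 settings. *Ezh2* was called in every alternative with a fold minimum.

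**Figure D2:**
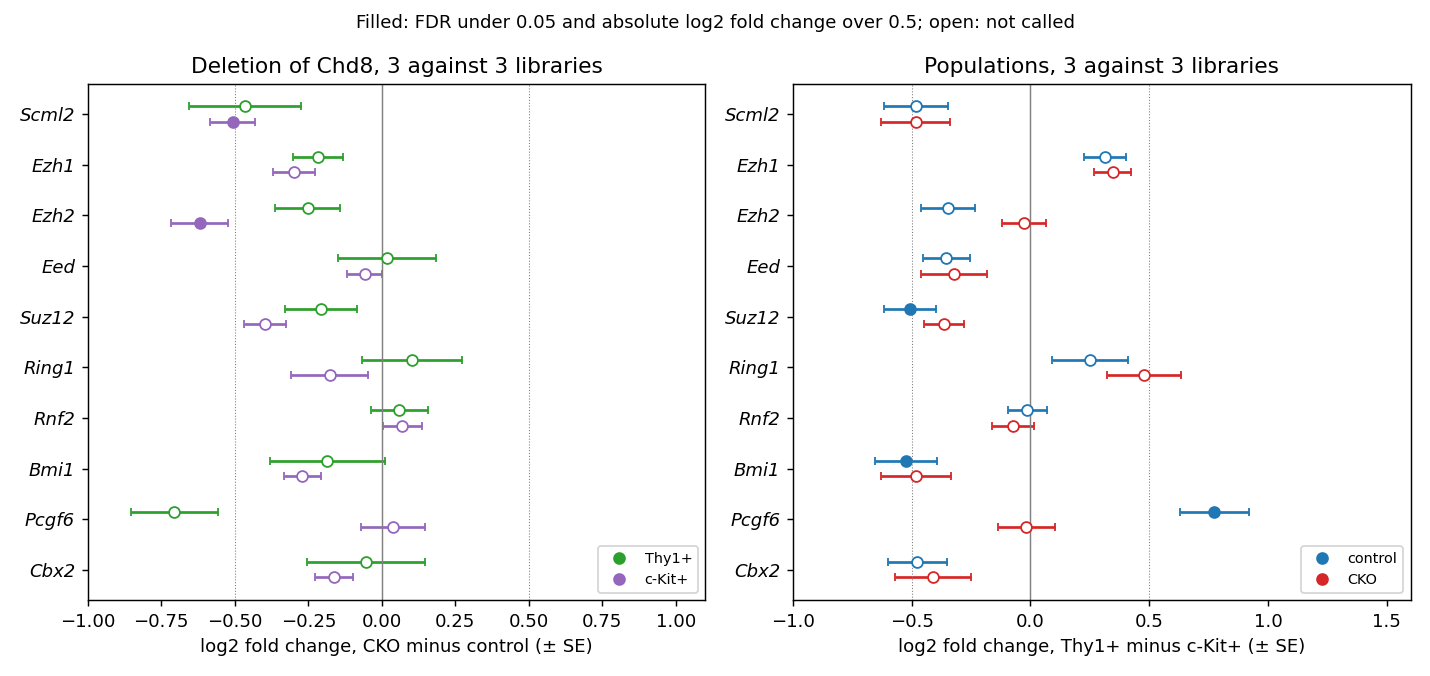
Log2 fold change of each member with its SE (edgeR, 3 against 3 libraries), for the deletion of Chd8 within each population (left) and for Thy1+ minus c-Kit+ cells within each genotype (right). Filled symbols passed an FDR of 0.05 and an absolute log2 fold change of 0.5 (dotted lines), which were Scml2 and Ezh2 for the deletion in c-Kit+ cells and Suz12, Bmi1 and Pcgf6 between the control populations.

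Markers of other cells moved along with these differences in c-Kit+ libraries, although straining and settling steps before the beads were meant to take out Sertoli and other somatic cells. The 8 Sertoli markers summed to 646 to 1669 CPM in control and 2621 to 2846 CPM in mutant libraries, with 7 of 8 called higher and *Sox9*, the defining marker, at 18.1 to 43.6 and 76.5 to 88.5 CPM. Of the other somatic lists, 6 of 6 stromal, 5 of 6 endothelial, 4 of 6 Leydig, 3 of 5 peritubular myoid, 4 of 6 mast cell and 1 of 6 macrophage markers were called higher, and 0 of the 1 erythroid marker tested. The 8 germ-cell markers summed to 2546 to 3047 CPM in control and 1922 to 2222 CPM in mutant libraries, a mean log2 difference of −0.38, and 1 of 8 was called lower. Their part in the differences of the members was not tested. In bulk samples, fewer cells of a type and less RNA per cell cannot be told apart.

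The size of the differences depended on the scale. As a percentage of the summed germ-cell CPM, a measure chosen after the values were seen, *Scml2* stood at 14.1%, 14.2% and 13.9% in control and 13.5%, 12.4% and 14.4% in mutant c-Kit+ libraries. These groups overlapped, and the mean log2 difference was −0.07 (SD 0.11 among mutant and 0.01 among control libraries). *Ezh2* differed by −0.17 on this scale, with overlap. *Eed* (0.38), *Bmi1* (0.17), *Cbx2* (0.27), *Ezh1* (0.14) and *Rnf2* (0.51) were higher in every mutant c-Kit+ library than in any control library on this scale, and *Suz12* (0.04) and *Ring1* (0.26) overlapped. *Pcgf6*, at 0.815% ± 0.0219 in control and 1.13% ± 0.0195 in mutant libraries, was higher in every mutant library, by 0.48 on the log2 scale. The sum itself was lower in mutant c-Kit+ libraries, by a mean log2 difference of −0.38. A gene with equal CPM in both genotypes therefore comes out higher by that amount on this scale. The share of all genes that were higher on it was not computed. The germ-cell list itself contains genes that changed, however, and 5 of its 8 genes are also on the list of PCGF6/E2F6 targets described below. The other 3 germ-cell genes were *Tdrd1*, *Sall4* and *Zbtb16*, of which *Zbtb16* is also on the list of undifferentiated spermatogonia. Against these 3 genes, *Scml2* was lower by a log2 difference of −0.26 and *Ezh2* by −0.36, without overlap. Against *Ddx4* alone, which is itself on the list of PCGF6/E2F6 targets, they were lower by −0.28 and −0.39, also without overlap. *Pcgf6* was higher against both references, by 0.29 and 0.26. For the other members the direction or the overlap depended on the reference. *Ezh1* turned to −0.05 and −0.07 and *Bmi1* to −0.02 and −0.05, with overlap, and *Cbx2* had 0.08 and 0.06, with overlap. *Rnf2* (0.32 and 0.29) and *Ring1* (0.07 and 0.05) overlapped against both. *Eed* was higher without overlap against the 3 genes (0.19) and overlapped against *Ddx4* (0.17), and *Suz12* was lower without overlap against the 3 genes (−0.15) and overlapped against *Ddx4* (−0.17).

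**Figure D3:**
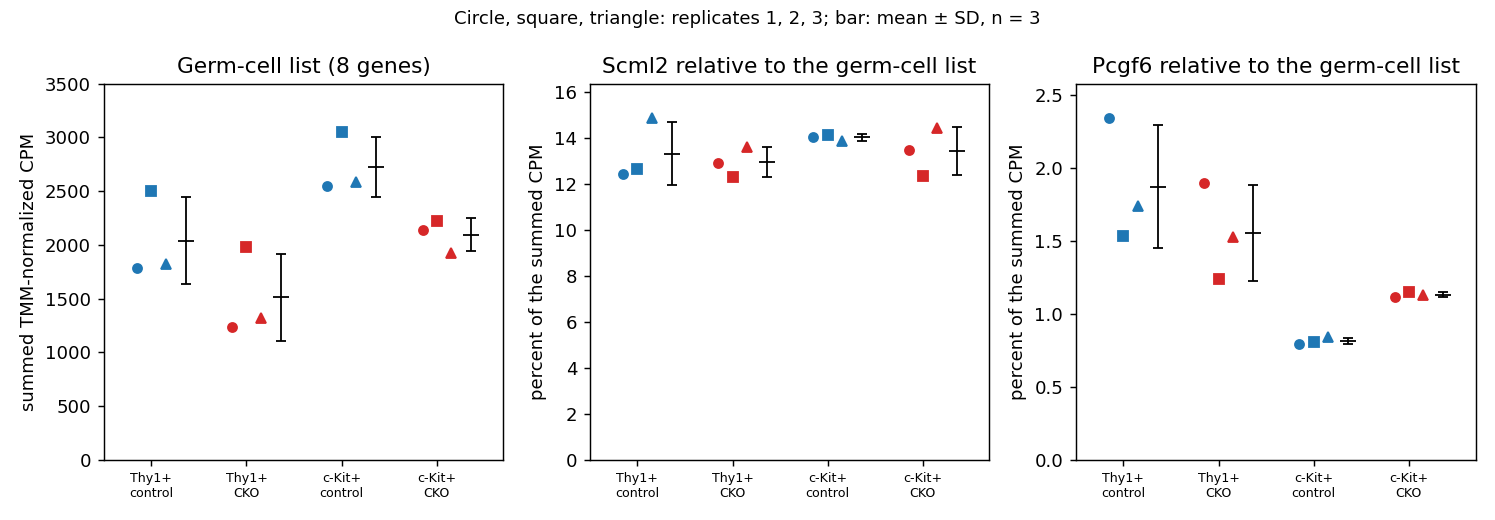
Summed level of 8 germ-cell markers (left, TMM-normalized CPM), and Scml2 (middle) and Pcgf6 (right) as percent of that sum, in every library (blue, control; red, mutant; symbols, replicates 1, 2 and 3; bar, mean ± SD, n = 3). The germ-cell sum is lower in mutant c-Kit+ libraries (1922 to 2222 against 2546 to 3047 CPM). Neither Scml2 nor Pcgf6 is among the 8 genes. Relative to this sum, Pcgf6 is higher in Thy1+ than in c-Kit+ cells of both genotypes. Scml2 equals 12.3% to 14.9% of the sum over the 12 libraries. This narrow range of Scml2 does not hold against the 3 germ-cell genes that are no PCGF6/E2F6 targets (39.5% to 56.8% in Thy1+ and 64.7% to 87.6% in c-Kit+ libraries). Against these 3 genes the mutant populations overlap in Pcgf6 (5.35% to 7.74% in Thy1+ and 5.84% to 6.05% in c-Kit+ libraries). Of these 3, Zbtb16 is also a marker of undifferentiated spermatogonia, with a mean of 220 CPM in control Thy1+ and 108 CPM in control c-Kit+ cells.

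The same comparison in Thy1+ cells, which the study uses as undifferentiated spermatogonia, called 0 of 10 members and 0% of 17416 genes in either direction (0 higher and 0 lower). The lowest FDR of any gene was 0.141, and 2151 genes, 3 members among them (all lower), had an unadjusted p under 0.05. This main fit did not pair libraries by replicate number. The edgeR exact test, the one the study used, called 20 genes higher and 274 lower, and DESeq2 52 and 326. The quasi-likelihood test with the replicate number as a block called 558 higher and 856 lower. The member with the largest difference was *Pcgf6* (gene ID 71041; chromosome 19, 47033619 to 47050845, minus strand). It stood at 41.9, 38.4 and 31.6 CPM (control) against 23.5, 24.6 and 20.3 CPM (mutant). All 3 mutant libraries lay below all 3 control libraries, at the level that *Pcgf6* had in c-Kit+ cells of both genotypes. The log2 fold change was −0.71 (SE 0.15, unadjusted p = 0.00132, FDR = 0.195). Libraries with the same replicate number deviated together in this population, and once that number entered the model as a block *Pcgf6* was called (log2 fold change −0.70, SE 0.08, FDR = 1.7e-05). It was also called by the edgeR exact test, by DESeq2 and in the fit of all 12 libraries, with an FDR of 0.0290, 0.00419 and 0.0199.

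*Scml2* stood at 222, 317 and 271 CPM (control) against 160, 244 and 180 CPM (mutant Thy1+). The groups overlapped, with replicate 2 the highest of each, and within each replicate number the mutant value was the lower. The log2 fold change was −0.47 (SE 0.19, FDR = 0.388), and −0.47 (SE 0.05, FDR = 1.2e-05) with the replicate block, short of the fold minimum. *Ezh1* and *Ezh2* joined *Pcgf6* among the members whose mutant libraries all lay below the control libraries, so that 3 of 10 members did, beside 10.7% of all genes tested. *Ezh1* went from 112 ± 3.19 to 96.1 ± 2.49 CPM (log2 fold change −0.22, SE 0.09, FDR = 0.379) and *Ezh2* from 55.3 ± 3.20 to 46.2 ± 3.30 CPM (log2 fold change −0.25, SE 0.11, FDR = 0.407).

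With the replicate block, 6 of 10 members were lower by the FDR alone (*Scml2*, *Ezh1*, *Ezh2*, *Suz12*, *Bmi1* and *Pcgf6*) beside 13.6% of all genes, and 1 of 10 was called lower, beside 4.92% of all genes. The other 4 members, *Eed*, *Ring1*, *Rnf2* and *Cbx2*, had log2 fold changes from −0.05 to 0.10 without the block and were not called with it. *Suz12* differed by −0.21 (SE 0.12) and *Bmi1* by −0.18 (SE 0.20) without the block. Leaving out the first replicates of both Thy1+ groups, which stood apart in Sertoli markers, gave −0.64 for *Pcgf6*, −0.47 for *Scml2*, −0.30 for *Ezh2* and −0.18 for *Ezh1*, with 0 members called.

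Cell type markers moved with the genotype in Thy1+ cells as well. Between libraries of the same number, the Sertoli sum went from 2374 to 3157, from 542 to 1057 and from 608 to 1128 CPM, higher in the mutant each time. The Leydig, peritubular myoid, stromal and endothelial sums were also higher in 3 of 3 mutant libraries, and the macrophage, mast cell and erythroid sums in 2 of 3. Most of the mast cell sum was *Kit*, which is on that list. In control libraries *Kit* had 171, 393 and 298 CPM, within mast cell sums of 188, 405 and 312 CPM. Without the block, 6 of 6 mast cell markers had positive log2 fold changes. The germ-cell sum went from 1787 to 1237, from 2503 to 1978 and from 1819 to 1323 CPM, lower each time. With the replicate block, 7 of 8 Sertoli markers, 1 of 6 stromal, 1 of 6 macrophage, 1 of 6 mast cell and 1 of 3 erythroid markers were called higher, and 0 of the Leydig, peritubular myoid and endothelial markers, beside 558 of 17416 genes. Called lower with the block were 3 of 8 germ-cell markers, 4 of 8 markers of differentiating spermatogonia and 7 of 8 markers of undifferentiated spermatogonia, beside 856 of 17416 genes. The part of these markers' cells in the values of *Pcgf6* and the other members was not tested. Relative to the germ-cell sum, the mutant and control libraries overlapped for *Scml2* (13.3% ± 1.36 in control and 13.0% ± 0.640 in mutant cells) and for *Pcgf6* (1.87% ± 0.423 and 1.56% ± 0.328), while *Eed*, *Bmi1* and *Cbx2* were higher in every mutant library, by 0.44, 0.25 and 0.37 on the log2 scale. The sum itself was lower in mutant Thy1+ libraries by a mean log2 difference of −0.44, which raises a gene of equal CPM by that amount. The share of all genes that were higher on this scale was not computed. Against *Ddx4*, the libraries overlapped for *Eed*, *Bmi1* and *Cbx2* (0.32, 0.13 and 0.25), as for all other members. Against the 3 germ-cell genes, *Eed* (0.62), *Bmi1* (0.43), *Cbx2* (0.55) and *Rnf2* (0.67) were higher without overlap, and *Scml2* turned to 0.14 and *Pcgf6* stood at −0.08, both with overlap. These 3 reference genes themselves had lower means in mutant than in control Thy1+ cells. *Tdrd1* went from 168 to 122 CPM, *Sall4* from 173 to 100 CPM and *Zbtb16* from 220 to 145 CPM.

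Whether the effect of the deletion differed between the populations was tested as an interaction over all 12 libraries. It called 0 of 10 members and 0% of 18002 genes, while 1804 genes, 1 member among them, had an unadjusted p under 0.05 and DESeq2 called 44 genes higher and 20 lower. The largest difference among the members was that of *Pcgf6*, whose log2 fold change was higher in c-Kit+ than in Thy1+ cells by 0.81 (SE 0.18, unadjusted p = 7.0e-04, FDR = 0.336). *Ezh2* followed with −0.30 (SE 0.14, unadjusted p = 0.0573, FDR = 0.510), and *Scml2* had 0.02 (SE 0.22, FDR = 0.984). The call of *Pcgf6* thus depended on the test, since DESeq2 gave an FDR of 0.0493 for the difference.

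The populations were then compared within each genotype, which asks how Polycomb transcripts change when spermatogonia start to differentiate. In control mice, *Pcgf6* was higher and *Suz12* and *Bmi1* lower in Thy1+ than in c-Kit+ cells. *Pcgf6* stood, in control libraries, at 37.3 ± 5.23 CPM (Thy1+) and 22.2 ± 2.24 CPM (c-Kit+), with no overlap and a log2 fold change of 0.77 (SE 0.14, FDR = 0.00419). *Suz12* had 134, 172 and 154 CPM in Thy1+ cells, below every c-Kit+ control value (log2 fold change −0.51, SE 0.11, FDR = 0.00827). *Bmi1* stood, in control libraries, at 98.0, 144 and 111 CPM (Thy1+) and 167, 178 and 171 CPM (c-Kit+) (log2 fold change −0.52, SE 0.13, FDR = 0.0150). Thus 1 of 10 members was called higher, beside 20.7% of 17350 genes, and 2 of 10 lower, beside 7.08%.

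By the FDR alone, 2 members were higher (*Pcgf6* and *Ezh1*), beside 24.0% of all genes, and 6 lower (*Scml2*, *Ezh2*, *Eed*, *Suz12*, *Bmi1* and *Cbx2*), beside 13.6%. *Ezh1* was higher in Thy1+ cells by 0.31 (SE 0.09) and *Ezh2* lower by a log2 fold change of −0.35 (SE 0.11), so the paralogs went in opposite directions. *Scml2* (−0.48, SE 0.14, FDR = 0.0237) and *Cbx2* (−0.48, SE 0.12, FDR = 0.0176) fell just short of the fold minimum, and *Eed* had −0.35 (SE 0.10). *Scml2* was called in 9 and *Cbx2* in 7 of 14 alternatives with the fold minimum, both of them by DESeq2, with its size factors, with library totals and with the filter of 1 CPM, and neither by the edgeR exact test or with the replicate block. *Rnf2* stood at 104 ± 3.73 and 107 ± 5.02 CPM, the smallest difference of the members (log2 fold change −0.01, SE 0.08, FDR = 0.919). Without Thy1+ control replicate 1, the library with many Sertoli transcripts, only *Pcgf6* was called, *Suz12* having −0.44 and *Bmi1* −0.43. Without c-Kit+ control replicate 2 both were also not called (−0.44 and −0.50), and *Bmi1* was not called without Thy1+ control replicate 3 (−0.52, FDR = 0.0534). Without Thy1+ control replicate 2, 5 members were called, beside 3645 of 17673 genes called higher and 2002 called lower.

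In mutant mice, the difference in *Pcgf6* between the populations was −0.02 (SE 0.12, FDR = 0.923), with 22.8 ± 2.24 CPM (Thy1+) and 23.8 ± 1.93 CPM (c-Kit+). No member was called (0 of 10, and 0 by DESeq2 and the edgeR exact test), beside 15.3% of 17346 genes called higher and 5.03% called lower. At an unadjusted p under 0.05 (quasi-likelihood test), 2 members were higher and 5 lower, beside 7283 of the 17346 genes in either direction. By the FDR alone, 1 member was higher (*Ezh1*, 0.35, SE 0.08, FDR = 0.0127), beside 18.5% of all genes, and 3 were lower, beside 8.84%. These were *Scml2* (−0.48, SE 0.15), *Suz12* (−0.36, SE 0.08) and *Bmi1* (−0.48, SE 0.15). *Ezh2*, at 46.2 ± 3.30 CPM (Thy1+) and 48.5 ± 1.70 CPM (c-Kit+), differed by −0.03 (SE 0.09, FDR = 0.836). Without Thy1+ mutant replicate 2, which had the most germ-cell transcripts of its group, 4 members were called (*Scml2* −0.67, *Bmi1* −0.67, *Cbx2* −0.61 and *Ring1* 0.60). Calls over all genes also increased in that fit, to 3229 higher and 1788 lower of 17604 genes, from 2653 and 872 of 17346.

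Library totals in place of TMM factors changed the balance of calls between the populations from 3594 higher and 1229 lower to 3252 and 1851 in controls, and from 2653 and 872 to 2393 and 1390 in mutants. Between the control populations, stromal (6 of 6), macrophage (6 of 6), peritubular myoid (4 of 5) and endothelial (2 of 6) markers were called higher in Thy1+ cells. Leydig (5 of 6) and mast cell (5 of 6, *Kit* among them) markers were called lower, with 0 of 8 Sertoli and 0 of 2 erythroid markers called. The stromal sum in control libraries was 8302 to 10777 CPM for Thy1+ and 1370 to 1678 CPM for c-Kit+ cells, and the part of these cells in the differences of the members was not tested. Of the markers of undifferentiated spermatogonia 7 of 8 were called higher in Thy1+ cells, and of those of differentiating spermatogonia 7 of 8 were called lower.

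The catalytic paralogs of PRC2 changed places between the control populations. In reads per kb of exon, the log2 ratio of *Ezh2* to *Ezh1* was −0.50, −0.31 and −0.30 in control Thy1+ libraries and 0.15, 0.27 and 0.44 in control c-Kit+ libraries. *Ezh1* was thus the more abundant per length in every control Thy1+ library and *Ezh2* in every control c-Kit+ library. Mutant Thy1+ libraries had −0.36, −0.30 and −0.56, and mutant c-Kit+ libraries 0.03, 0.00 and −0.12, between the control populations. The mean difference was −0.66 between the control populations, −0.38 between the mutant populations and −0.32 between mutant and control c-Kit+ cells. In each of these the libraries were apart, and the exact permutation test (two-sided) gave p = 0.1, the smallest that 3 against 3 libraries allow, or 0.3 after adjustment over 12 tests. In Thy1+ cells the genotypes overlapped (difference −0.04, exact permutation p = 0.7). The part of somatic cells in these ratios was not tested.

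For the ubiquitin ligases, *Rnf2* exceeded *Ring1* per length in every library, with log2 ratios from 1.90 to 2.33 in Thy1+ and from 2.18 to 2.73 in c-Kit+ libraries, subject to the overlap of *Ring1* with its opposite-strand neighbour. Only the mutant populations were apart in this ratio (difference −0.55, exact permutation p = 0.1). The ratio of *Bmi1* to its paralog *Pcgf2* was also above 0 in every library, with means from 0.88 to 1.45, and overlapped in all 4 comparisons.

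**Figure D4:**
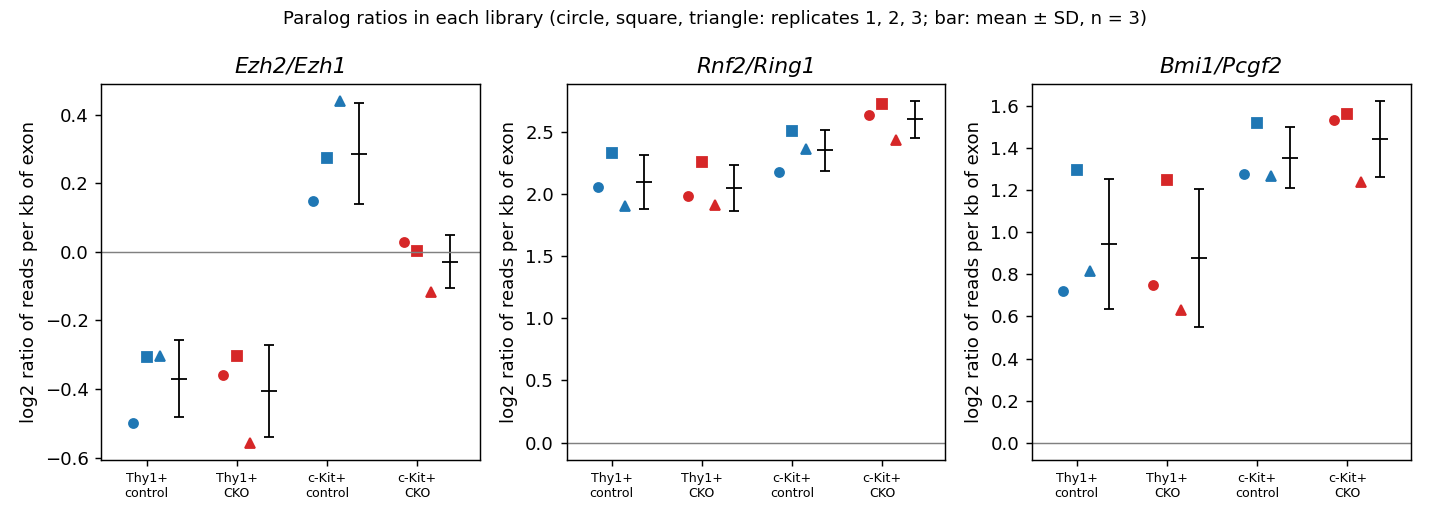
Log2 ratio of reads per kb of exon for 3 pairs of paralogs in every library (blue, control; red, mutant; symbols, replicates 1, 2 and 3; bar, mean ± SD, n = 3; grey line, equal levels). Ezh2/Ezh1 lies between −0.56 and −0.30 in Thy1+ libraries, between 0.15 and 0.44 in control c-Kit+ libraries and close to 0 in mutant c-Kit+ libraries.

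Across the 12 libraries, 5 members (*Scml2*, *Suz12*, *Eed*, *Cbx2* and *Bmi1*) correlated with each other at a Pearson r of log2 CPM from 0.79 to 0.95. *Scml2* was most like *Suz12* (r = 0.951), *Eed* most like *Cbx2* (0.943) and *Bmi1* most like *Eed* (0.942). *Ezh2* was most like *Suz12* (0.821), whereas *Ezh1* and *Pcgf6* were most like each other (0.681). *Ring1* ran against *Eed* (−0.873). *Rnf2* had no close partner (0.253 with *Eed*). Among 13676 genes, the transcripts most like *Scml2* were *Taf7l*, a germline subunit of the general transcription factor TFIID (0.990), *Syce1*, a component of the synaptonemal complex (0.990), and gene ID 246155 (0.990). These values describe libraries that share genotype, population and cell composition, and carry no p.

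Other genes of the Polycomb system (49, all tested) were read from lists by complex. In c-Kit+ cells 1 of 49 was called higher and 7 lower in mutants, beside 14.8% and 7.41% of all genes, and in Thy1+ cells 0 were called (6 lower and 0 higher at an unadjusted p under 0.05, and 2 called by DESeq2 and by the edgeR exact test). The median log2 fold change of the 49 was −0.15 in c-Kit+ and −0.12 in Thy1+ cells, beside 0.01 and 0.02 over all genes.

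The largest decrease was in the PhoRC-like list, where *Sfmbt2*, an MBT-domain protein that partners with the DNA-binding YY1, stood at 70.1, 86.8 and 88.0 CPM (control) against 33.3, 36.8 and 32.7 CPM (mutant c-Kit+). The libraries were far apart (log2 fold change −1.31, SE 0.10, FDR = 8.8e-05). In Thy1+ cells *Sfmbt2* stood at 59.0, 78.1 and 70.1 CPM (control) against 24.7, 40.1 and 29.3 CPM (mutant) (log2 fold change −1.13, SE 0.20, FDR = 0.163), and it was called with the replicate block (−1.15, FDR = 1.5e-07). Its paralog *Sfmbt1* was called lower in c-Kit+ cells (−0.59, SE 0.07), and *Yy1* was not called in any comparison. For the variant PRC1 list (16 genes), *Kdm2b*, which brings PRC1 to CpG islands, was the only call in c-Kit+ cells (−0.60, SE 0.08, FDR = 3.9e-04). It had a similar value in Thy1+ cells (−0.64, SE 0.12, FDR = 0.163) and was called there with the block (−0.64, FDR = 7.3e-06).

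In the canonical PRC1 list (9 genes), *Phc1* (−0.71, SE 0.09) and *Scmh1* (−0.55, SE 0.10), both partners in the PRC1 core, were called lower and *Cbx6*, a chromobox reader, higher (0.73, SE 0.09) in mutant c-Kit+ cells. *Cbx6* was also higher in Thy1+ than in c-Kit+ control cells by 1.87 (SE 0.13), and the part of somatic cells in this difference was not tested. In the list of PRC2 accessory subunits (10 genes), *Ezhip*, an inhibitor of PRC2 that is expressed in gonads, was the only call in c-Kit+ cells (−0.57, SE 0.09, FDR = 7.8e-04). It stood at 31.7, 33.2 and 35.3 CPM (control) against 23.7, 23.5 and 23.2 CPM (mutant), without overlap. *Mtf2* was the accessory gene of lowest p in Thy1+ cells (−0.35, SE 0.12, FDR = 0.334). Among the H3K27 demethylases (3 genes), *Kdm6a*, X-linked like *Scml2*, was called lower in c-Kit+ cells (−0.83, SE 0.14, FDR = 0.00155) and had −0.18 (SE 0.14, FDR = 0.607) in Thy1+ cells. Of the PR-DUB list (8 genes), which removes the PRC1 mark, 0 were called in either population, the lowest p being that of *Mbd6* in c-Kit+ cells (−0.32, SE 0.08, FDR = 0.00803) and of *Asxl3* in Thy1+ cells (−0.26, SE 0.15, FDR = 0.481).

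**Figure D5:**
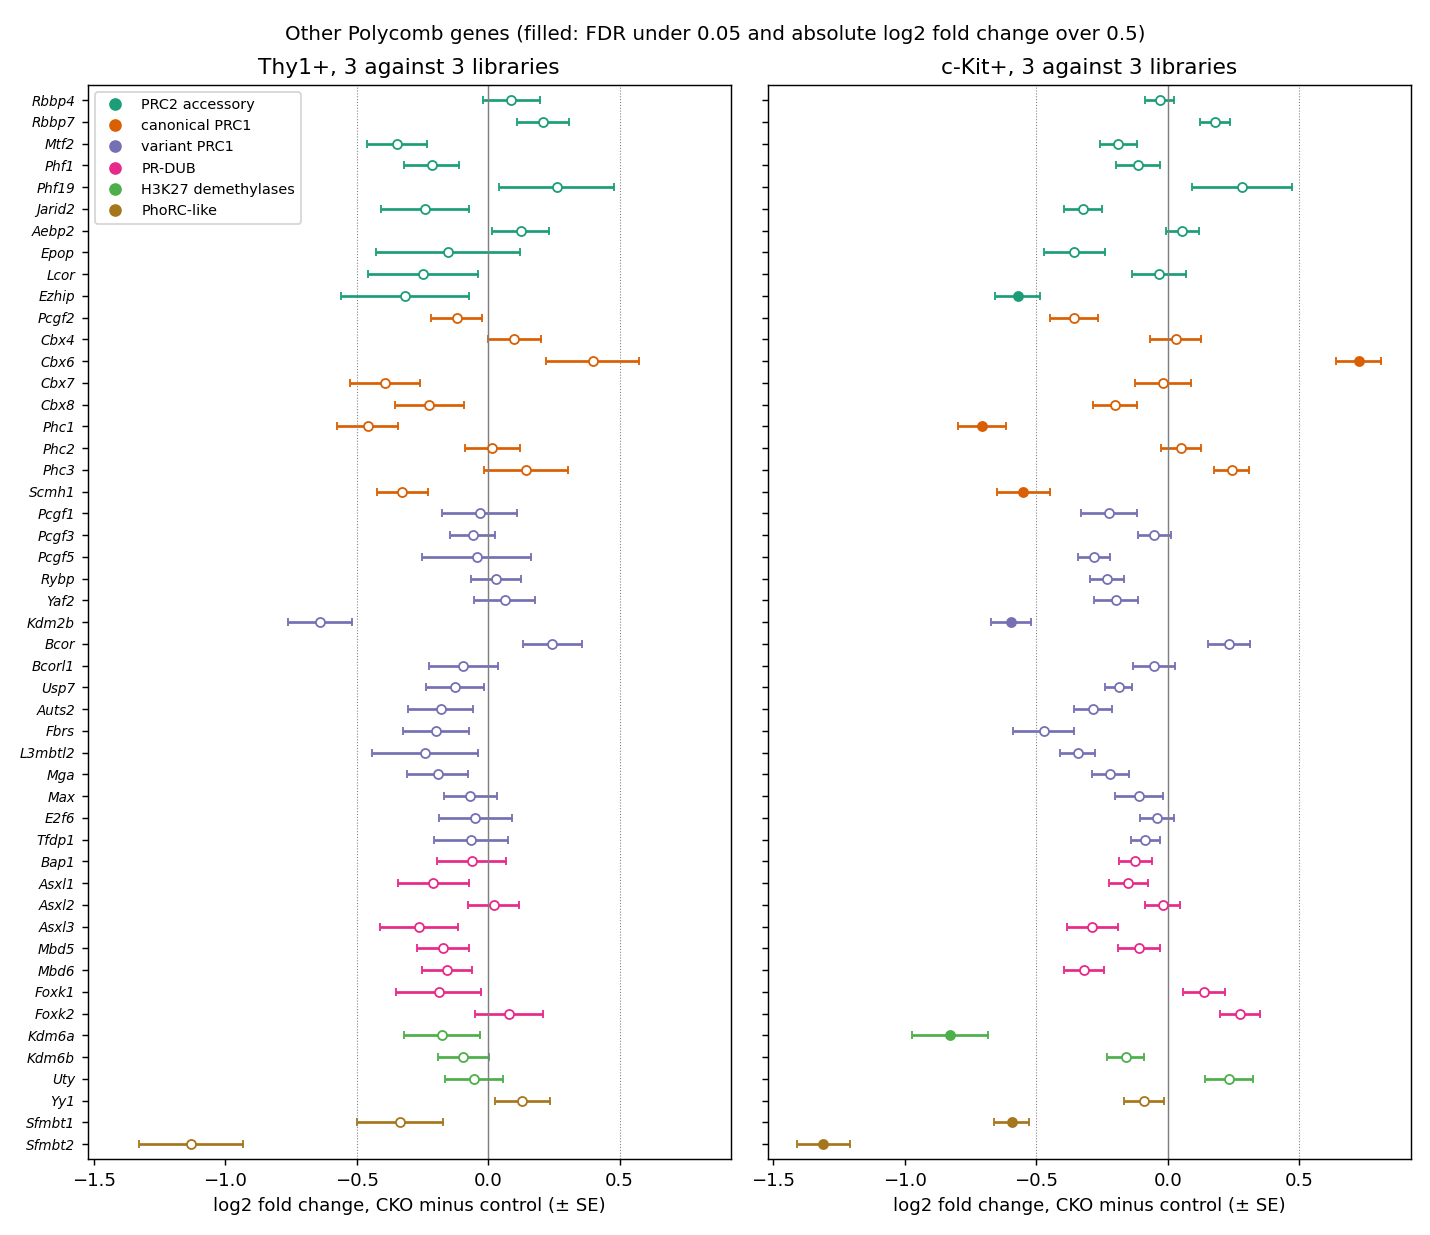
Log2 fold change (mutant minus control, ± SE) of 49 other Polycomb genes in Thy1+ (left) and c-Kit+ (right) cells, coloured by list. Filled symbols, all in c-Kit+ cells, mark the 8 called genes, of which Cbx6 is higher (0.73) and Sfmbt2 has the lowest value (−1.31).

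Between the control populations, 5 of 49 were called higher in Thy1+ cells, beside 20.7% of all genes, and 5 lower, beside 7.08%. The accessory subunit *Phf19* (1.61, SE 0.21), the readers *Cbx6* and *Cbx7* (0.66, SE 0.13), the PCGF1 partner *Bcor* (0.68, SE 0.10) and the PR-DUB partner *Foxk1* (1.12, SE 0.14) were higher. *Ezhip* (−0.71, SE 0.14), *Epop* (−0.90, SE 0.21), *Pcgf5* (−0.71, SE 0.14), *L3mbtl2* (−0.54, SE 0.15) and *Sfmbt1* (−0.59, SE 0.12) were lower. In mutants, 5 were called higher, beside 15.3%, and 2 lower, beside 5.03%. *Phf19* (1.54), *Cbx6* (1.49), *Bcor* (0.65), *Foxk1* (0.75) and *Kdm6a* (0.53) were higher, and *Epop* (−0.74) and *Pcgf5* (−0.51) lower. The interaction called 0 of 49 (3 at an unadjusted p under 0.05, and 0 by DESeq2), with the lowest FDR of the named genes at 0.435 (*Uty*).

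Genes that Polycomb complexes are known to silence were read in the same way. Of 11 germline genes known as targets of PCGF6 or E2F6, 5 were called lower in mutant c-Kit+ cells, beside 7.41% of all genes, and 0 higher, beside 14.8%, and 11 of 11 had negative values (median log2 fold change −0.45). *Tex101*, a cell surface protein of germ cells, fell from 158, 270 and 249 CPM to 58.0, 64.3 and 58.8 CPM (log2 fold change −1.96, SE 0.17, FDR = 1.3e-04). *Stag3*, a meiotic cohesin subunit (−1.19, SE 0.12), and *Taf7l* (−0.84, SE 0.09) were also called. In Thy1+ cells 0 were called (4 lower at an unadjusted p under 0.05) and 11 of 11 were negative (median −0.40), *Tex101* having −1.27 (SE 0.33, FDR = 0.255). Of these genes 5 are also on the germ-cell list, whose sum was lower in mutant c-Kit+ libraries, and the part of germ-cell number in these values was not tested. Between populations, 7 of the 11 were called lower in Thy1+ control cells, beside 7.08% of all genes, among them *Tdrkh* (−0.70), *Taf7l* (−0.75) and *Dazl* (−0.71), and 4 in mutants, beside 5.03%, among them *Smc1b* (−0.60), *Dazl* (−0.61) and *Tdrkh* (−0.61).

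Of 18 developmental regulators that are classical PRC2 targets, 11 were tested in c-Kit+ cells and 4 were called higher in mutants, beside 14.8% of all genes, namely *Gata4* (1.06, SE 0.14), *Wt1* (1.05, SE 0.19), *Gata6* (1.39, SE 0.26) and *Sox17*. *Gata4* and *Wt1* are also on the Sertoli list. *Gata6* stood at 15.8, 6.01 and 11.4 CPM in control c-Kit+ cells, at 30.2, 28.8 and 31.2 CPM in mutant c-Kit+ cells, and at 24.7 and 31.4 CPM in the first replicates of both Thy1+ groups. The part of somatic cells in these values was not tested. In Thy1+ cells 0 of 13 tested were called (2 lower at an unadjusted p under 0.05), and the lowest p was that of *T* (Brachyury), with 8.26, 4.83 and 4.36 CPM in control and 1.55, 2.75 and 1.07 CPM in mutant libraries (log2 fold change −1.68, SE 0.40, FDR = 0.240). *T* was higher in Thy1+ than in c-Kit+ control cells by 4.17 (SE 0.38), as were *Eomes* (2.29, SE 0.32) and *Pax7* (1.16, SE 0.32). In mutants the difference between populations was 1.85 (SE 0.42) for *T* and 2.81 (SE 0.49) for *Foxa2*. These differences rest on few counts. *Foxa2* had 2, 4 and 6 counts in mutant c-Kit+ libraries, and *T* had 15, 21 and 20 there and 14, 8 and 12 in control c-Kit+ libraries.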

How the data were processed

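RNA-seq of 12 libraries was analysed (poly(A) RNA, directional kit, paired-end reads), and the ChIP-seq samples of the series were not analysed here. Per the labels and the study's methods, reads were trimmed with Trimmomatic 0.39 and mapped to mm10 with HISAT2 2.1.0. The authors deposited raw read counts per gene from featureCounts (2.0.3 in the file header) over RefSeq exons, without normalization, strand setting or counting of fragments. Symbols were given by gene ID to 25275 of 27179 genes.

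Counts were tested with edgeR 4.0.16 in R 4.3.3 (quasi-likelihood F test, TMM, filterByExpr, Benjamini-Hochberg adjustment over all genes tested), 2 groups at a time, and an interaction over 12 libraries. Paralog ratios were compared by exact permutation over libraries. The thresholds (FDR 0.05, log2 fold change 0.5) are those of the study, which used the exact test of edgeR. That test is given here as an alternative, since the quasi-likelihood test was the main one. Total counts of 32266861 to 45396233 limit precision less than the spread between 3 libraries does. The biological coefficient of variation was 20.9% for the deletion in Thy1+ cells and 12.1% in c-Kit+ cells.

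Named genes were the 10 members, up to 3 called genes of lowest p from each further list in each comparison (the gene of lowest p where none was called), *Chd8*, *Thy1*, *Kit* and the defining markers. The members and lists were chosen with earlier results of these data known. Expression relative to germ-cell markers, Thy1+ fits without the first replicates, and the cell type markers with the replicate block in Thy1+ cells were added after the values were seen. The fitting steps were tested on simulated data.

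Replicate numbers come from sample titles and no source says that they pair libraries. After subtraction of group means, libraries with the same number correlated at 0.267 to 0.492 in Thy1+ cells and 0.101 to 0.125 in c-Kit+ cells. Between controls they correlated at 0.134 to 0.298, and all these values were over the limit of 0.1. Between mutant populations 1 of 3 pairs and in the interaction 10 of 18 passed this limit. The main fits did not pair libraries in any comparison, and pairing entered only through the replicate block, as an alternative.

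The alternatives were the edgeR exact test, DESeq2 1.42.0, its size factors in edgeR, library totals, no filter, a filter of 1 CPM in 3 libraries, a fit of 12 libraries, the replicate block, no fold minimum, and each library left out in turn. Promoters are from RefSeq (GRCm38.p6).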

Additional observations from a re-analysis of the deposited data

How the results depend on the processing

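Of 750 log2 fold changes of members recomputed under alternatives, 672 kept their direction and their side of the threshold, 32 were newly called, 9 lost their call and 37 turned sign, none of them a called value. The number of members called in Thy1+ cells for the deletion was 0, and 1 by the edgeR exact test, by DESeq2, in the fit of 12 libraries and with the replicate block (0 to 0 with a library left out). In c-Kit+ cells it was 2, and 1 with library totals and in the fit of 12 libraries, and 5 without a fold minimum (1 to 2 with a library left out). Between control populations it was 3, and 5 by DESeq2, with its size factors, with library totals and with the filter of 1 CPM, and 8 without a fold minimum (1 to 5 with a library left out). Between mutant populations it was 0, and 2 with library totals, in the fit of 12 libraries and with the replicate block, and 4 without a fold minimum (0 to 4 with a library left out). In the interaction it was 0, and 1 by DESeq2 and with the replicate block (*Pcgf6*, FDR = 0.0210, quasi-likelihood test of edgeR). The causes were not tested. Beyond the calls named in the report, the replicate block changed no call of a member in the 3 comparisons whose same-numbered libraries all passed the correlation limit.

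Sign changes concerned small values. For the deletion in Thy1+ cells, *Eed* had −0.013 with library totals, and with a library left out *Eed* ranged from −0.19 to 0.13, *Ring1* from −0.014 to 0.19 and *Cbx2* from −0.28 to 0.10. *Pcgf6* in c-Kit+ cells ranged from −0.026 to 0.12. Between mutant populations *Ezh2* ranged from −0.074 to 0.032 and *Pcgf6* from −0.094 to 0.065. In the interaction, *Scml2* had −0.056 by DESeq2 and with its size factors and −0.015 without a filter, and *Rnf2* had −0.0034 by DESeq2 and −0.0032 with its size factors. With a library left out, the interaction ranged from −0.20 to 0.22 for *Scml2*, −0.12 to 0.044 for *Ezh1*, −0.20 to 0.17 for *Eed*, −0.0052 to 0.14 for *Rnf2*, −0.28 to 0.17 for *Bmi1* and −0.26 to 0.16 for *Cbx2*. The paralog log2 ratios for the deletion in Thy1+ cells ranged from −0.10 to 0.039 for *Ezh2*/*Ezh1*, −0.15 to 0.073 for *Rnf2*/*Ring1* and −0.25 to 0.11 for *Bmi1*/*Pcgf2*.

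Depth did not limit these genes. With 3 libraries per group, the permutation test of a ratio cannot go below 0.1. Mean differences of ratios are the same with pairing, and their SD over pairs for *Ezh2*/*Ezh1* was 0.0826 between control populations.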
